A study of Mus musculus with 9 samples.

Results

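Fibroblast growth factors (FGFs) and their receptors were followed in CXCL12-abundant reticular (CAR) cells, a stromal population of bone marrow that makes the chemokine Cxcl12 and supports haematopoiesis. The group comprised 10 genes of the 19938 measured: the ligands Fgf1, Fgf2, Fgf7, Fgf10 and Fgf18, and the receptor family Fgfr1, Fgfr2, Fgfr3, Fgfr4 and Fgfrl1. Each was read by 1 probe set whose only gene symbol in the platform table was that of the member, so 10 of 21789 such probe sets were concerned. All 10 entered the tests, with no filter on low values. Expression was measured on 9 Mouse Gene 1.0 ST arrays. The 4 control arrays came from mice given phosphate-buffered saline (PBS) alone, and 5 arrays came from mice given G-CSF (granulocyte colony-stimulating factor), which drives neutrophil production, at 250 µg/kg per day. Both treatments lasted 5 days. All mice of both groups were Cxcl12+/gfp, with a green fluorescent protein gene in 1 copy of the Cxcl12 locus, and the cells profiled had been sorted as bright for that protein and lineage-negative. Ages were not given, and neither was whether an array held the cells of 1 animal or of a pool.

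The groups follow the sample titles. The GEO source names instead speak of pre-B colonies and give Hspa9+/- as the genotype of G-CSF replicates 2 to 5 and wild-type littermates as the source of the other 5 arrays, so by these names genotype and treatment could not be told apart among those 4 arrays. Cxcl12, the gene that drives the sort marker, was at 12.35 ± 0.11 (log2 intensity, mean ± SD) on the 4 PBS arrays and 11.99 ± 0.07 on the 5 G-CSF arrays, and Lepr, the leptin receptor that marks CAR cells, was at 11.55 ± 0.21 and 11.33 ± 0.26. Principal component 1 (34.9% of the variance) parted the arrays, with both groups on either side. PBS replicates 1 and 2 lay beside G-CSF replicates 1 to 3 (set 1). The remaining 4 arrays, PBS 3 and 4 and G-CSF 4 and 5, formed set 2. The labels name no batch, so the set was used only as a block and for values within each set. The sets were drawn from the same values that were tested. An adjusted p from a fit with the set as a block may therefore be too small.

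FGFs are secreted or cell-associated proteins that bind receptor tyrosine kinases together with heparan sulfate chains on the cell surface and in the matrix. Ligand binding pairs the receptors, which signal through the adaptor Frs2, the Ras and ERK kinase cascade, phosphoinositide 3-kinase and phospholipase C gamma. ERK activity induces Sprouty, Spred and dual-specificity phosphatase genes, which restrain the pathway. Fgfr1, Fgfr2 and Fgfr3 are each spliced into IIIb and IIIc forms with different ligand preferences. Fgf7 and Fgf10 act mainly on the IIIb form of Fgfr2, which is typical of epithelia, while mesenchymal cells mostly carry IIIc forms. In the skeleton, Fgfr1 and Fgfr2 act in the osteoblast lineage and Fgfr3 restrains cartilage growth. A probe set of this array type sums over a gene, so the splice forms were not separated here.

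The promoters of the 2 receptors that fell after G-CSF and of Fgf7, the ligand with the largest difference, are shown because these members were lower on the same arrays. Promoter sequences came from a RefSeq table of build GRCm38.p6, which matched 8 of the 10 members with 9 entries. The 250 bases before the listed start are printed 5′ to 3′ on the strand of the gene, and capitals mark GC boxes, the letters GGGCGG or their reverse complement CCGCCC. The Fgfr2 window lies at chr7:130266809-130267058 on the minus strand.
Fgfr2: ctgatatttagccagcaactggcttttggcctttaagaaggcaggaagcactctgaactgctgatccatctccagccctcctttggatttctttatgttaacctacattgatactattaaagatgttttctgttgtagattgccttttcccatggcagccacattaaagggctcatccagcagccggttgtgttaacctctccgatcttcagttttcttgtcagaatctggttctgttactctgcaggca
Fgfr3 has 2 listed starts, with windows on the plus strand at chr5:33721474-33721723 and chr5:33722056-33722305.
Fgfr3, first start: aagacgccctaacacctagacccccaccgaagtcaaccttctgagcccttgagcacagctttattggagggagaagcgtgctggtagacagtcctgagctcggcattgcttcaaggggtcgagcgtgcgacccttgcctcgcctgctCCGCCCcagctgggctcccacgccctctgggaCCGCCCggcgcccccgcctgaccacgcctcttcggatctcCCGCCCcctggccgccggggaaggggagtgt
Fgfr3, second start: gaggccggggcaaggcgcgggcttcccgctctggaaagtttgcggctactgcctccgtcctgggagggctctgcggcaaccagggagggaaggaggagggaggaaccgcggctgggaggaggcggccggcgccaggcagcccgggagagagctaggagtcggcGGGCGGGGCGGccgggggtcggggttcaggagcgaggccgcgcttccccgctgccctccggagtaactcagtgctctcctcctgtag
The Fgf7 window lies at chr2:126034408-126034657 on the plus strand.
Fgf7: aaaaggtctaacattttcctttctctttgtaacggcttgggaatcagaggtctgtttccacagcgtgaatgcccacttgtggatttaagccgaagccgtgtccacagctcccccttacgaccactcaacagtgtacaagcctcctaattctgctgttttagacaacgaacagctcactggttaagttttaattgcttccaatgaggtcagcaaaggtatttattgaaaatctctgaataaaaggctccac
Base composition set these windows apart. The Fgfr2 window held 44.0% G and C with 2 CG dinucleotides and the Fgf7 window 43.6% with 6. The Fgfr3 windows held 66.8% with 19 and 72.8% with 24. The median over the 32841 windows of the table was 52.4% with 6. A GC box was found 3 times in the first Fgfr3 window and 2 times in the second, where the matches overlap, and 0 times in the Fgfr2 and Fgf7 windows, while 32.7% of all windows held at least 1. Searches on both strands for a STAT element (TTCNNNGAA, in 7.02% of all windows), an EBF element (in 0.78%) and a TATA box (TATAAA, in 12.4%) found no match in any of the 9 windows of the members. A match is a description of letters only, and these windows do not show which start the cells used.

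After G-CSF, expression of 2 of the 5 receptors fell, Fgfr2 and Fgfr3, and no member passed the test upward. The fall was 1.82-fold for Fgfr2 and 1.84-fold for Fgfr3. Fgfr1 was higher on every G-CSF array and Fgf7 was lower on every G-CSF array, but neither passed the test over all probe sets. The other 6 members gave overlapping values. Each change is the mean of the G-CSF arrays less that of the PBS arrays, in log2 units, with its standard error (SE) from limma on all 9 arrays, and a gene counted as risen or fallen at a Benjamini-Hochberg adjusted p under 0.05 over the 21789 probe sets. By this rule 2 of 10 members changed, beside 1.62% of all probe sets. Both fell, beside 0.877% of all probe sets that fell. The G-CSF and PBS arrays did not overlap for 4 of 10 members, beside 4.65% of all probe sets. The G-CSF arrays were the lower ones for 3 (all probe sets, 2.46%) and the higher ones for 1 (2.18%). RMA normalises the arrays to each other, so these are differences relative to other transcripts. Fewer cells of a type and less RNA per cell cannot be told apart in sorted bulk samples.

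**Figure D1:**
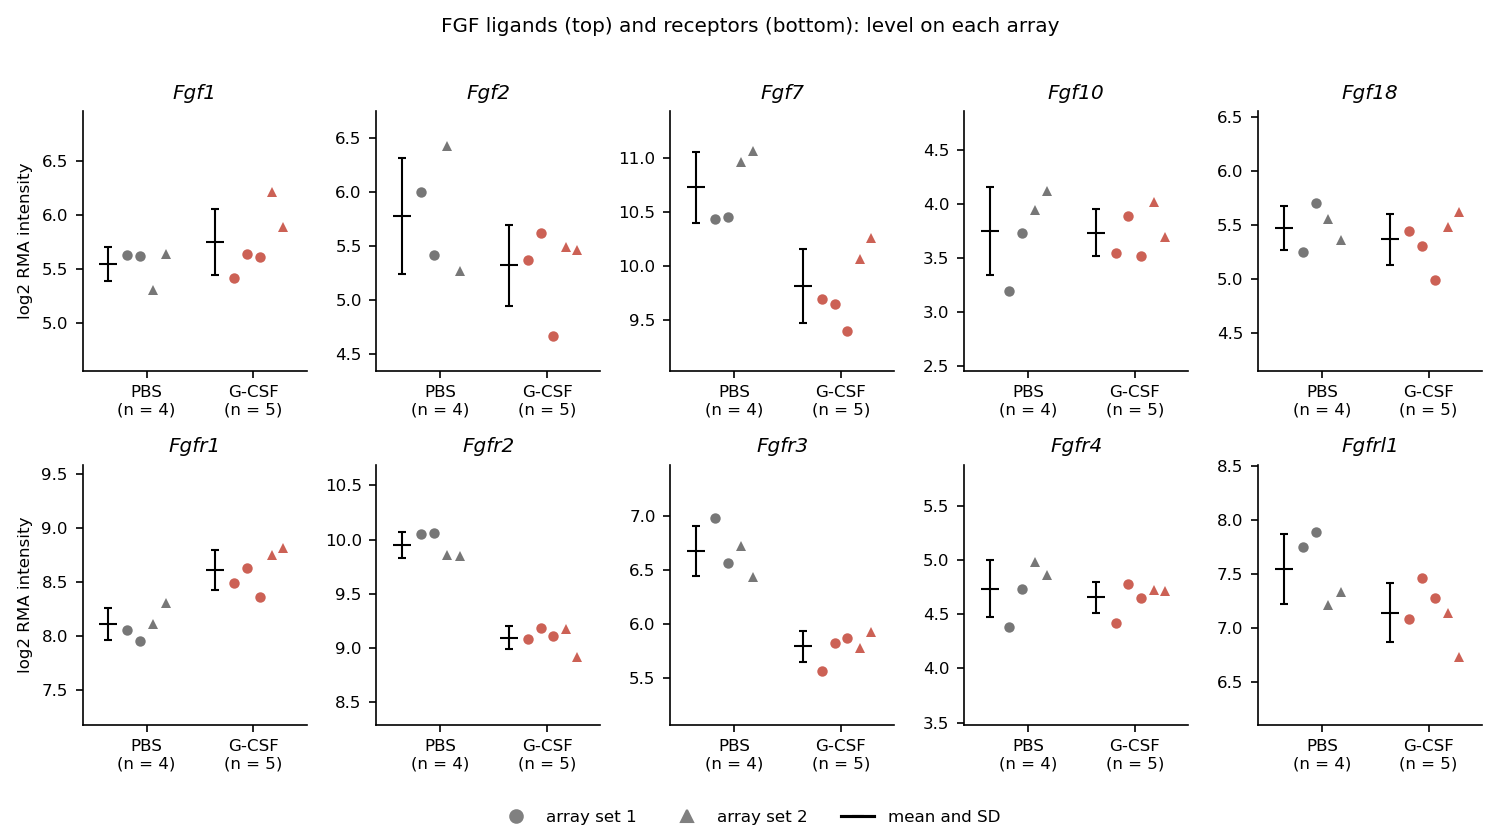
Level of each FGF ligand (top row) and receptor (bottom row) on every array, as log2 RMA intensity, for PBS (n = 4) and G-CSF (n = 5), with the mean and SD beside the points and the array set as the point shape. Every panel spans the same number of log2 units, and Fgfr2, Fgfr3 and Fgf7 lie lower and Fgfr1 higher on all 5 G-CSF arrays than on all 4 PBS arrays.

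Fgfr2, the receptor kinase whose IIIb form binds Fgf7 and Fgf10, read 10.05, 10.07, 9.85 and 9.85 in PBS replicates 1 to 4. In G-CSF replicates 1 to 5 it read 9.08, 9.18, 9.11, 9.18 and 8.91. All G-CSF arrays lay below all PBS arrays, and the gap between the groups was wider than the range within either. The mean went from 9.95 ± 0.12 (SD, n = 4) to 9.09 ± 0.11 (n = 5), a change of -0.86 (SE 0.13, 95% interval -1.15 to -0.58, limma adjusted p = 0.00511). Fgfr2 was among the tightest members, with a residual SD at percentile 2.12 of all probe sets. The call held in all 9 fits that left out 1 array (adjusted p of 0.00674 to 0.0221). Within sets the change was -0.93 in set 1 and -0.80 in set 2, and the set as a block gave -0.87 (adjusted p = 0.00159). Set 2 alone, with 2 arrays a group, did not pass (adjusted p = 0.263). With the replicate number as a block the call of Fgfr2 was lost. G-CSF replicate 1, the G-CSF array whose source name carries no Hspa9 genotype, lay within the range of the other 4.

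Fgfr3, the receptor best known as a brake on cartilage growth, read 6.98, 6.57, 6.72 and 6.44 in PBS replicates 1 to 4. The G-CSF replicates 1 to 5 read 5.56, 5.83, 5.87, 5.78 and 5.93. Again no G-CSF array reached the lowest PBS array. The mean went from 6.68 ± 0.23 (n = 4) to 5.79 ± 0.14 (n = 5), a change of -0.88 (SE 0.15, 95% interval -1.21 to -0.55, limma adjusted p = 0.0102). The call held in all 9 fits that left out 1 array (adjusted p of 0.0147 to 0.0355). The set as a block gave -0.89 (adjusted p = 0.00606), whereas with the replicate number as a block the call was lost. The change was -1.02 in set 1 and -0.72 in set 2, with adjusted p of 0.0737 and 0.334, so neither set passed alone. G-CSF replicate 1 was the lowest array, at 5.56 against 5.78 to 5.93 in the 4 whose source name gives Hspa9+/-.

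Fgfr1, the main FGF receptor of mesenchymal cells, stood on the opposite side. It read 8.06, 7.95, 8.12 and 8.31 in PBS and 8.49, 8.63, 8.37, 8.75 and 8.81 in G-CSF, replicates in order. All G-CSF arrays lay above all PBS arrays, although PBS replicate 4 came close to G-CSF replicate 3. The mean was 8.11 ± 0.15 in PBS and 8.61 ± 0.18 in G-CSF, a difference of 0.50 (SE 0.15, 95% interval 0.18 to 0.82) that did not pass over all probe sets (limma adjusted p = 0.152). It passed with the array set as a block (0.53, adjusted p = 0.0367), and within sets the difference was 0.49 and 0.57.

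The balance between receptors within an array differed between the groups. The log2 value of Fgfr1 minus that of Fgfr2 was -1.99, -2.11, -1.74 and -1.54 in PBS replicates 1 to 4 and -0.59, -0.55, -0.75, -0.42 and -0.10 in G-CSF replicates 1 to 5. The mean shifted by 1.36, from -1.84 ± 0.26 (n = 4) to -0.48 ± 0.24 (n = 5). Fgfr1 minus Fgfr3 went from 1.43 ± 0.33 to 2.82 ± 0.19, a shift of 1.38. The groups did not overlap in either difference. This follows from the single values, because Fgfr1 was higher and Fgfr2 and Fgfr3 were lower on every G-CSF array. Probe sets respond differently to the same amount of RNA, so the shift can be read but not which receptor was the more abundant. No test is given for these differences because the pairs were formed after the single values were known.

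Fgfr4, the fourth receptor kinase of the family and best known from liver, was low and flat, between 4.38 and 4.98 in PBS and between 4.42 and 4.78 in G-CSF. Its difference was -0.08 (95% interval -0.42 to 0.26, limma adjusted p = 0.976). Fgfrl1, a receptor that lacks the kinase domain, read 7.75, 7.88, 7.21 and 7.34 in PBS and 7.08, 7.47, 7.28, 7.14 and 6.73 in G-CSF. Its groups overlapped, and its difference of -0.40 (SE 0.19, 95% interval -0.82 to 0.01) did not pass (limma adjusted p = 0.563). Both PBS arrays of set 1 lay above every G-CSF array, while both PBS arrays of set 2 lay within the G-CSF range. Within sets 1 and 2 the difference was -0.54 and -0.34.

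Of the 5 ligands, 0 passed the limma test over all probe sets, and 1, Fgf7, had an unadjusted p under 0.05. Fgf7, a paracrine growth factor made by mesenchymal cells and also called keratinocyte growth factor, read 10.44, 10.46, 10.96 and 11.06 in PBS replicates 1 to 4. It read 9.70, 9.65, 9.40, 10.07 and 10.26 in G-CSF replicates 1 to 5. All G-CSF arrays lay below all PBS arrays, and in both groups the set 2 arrays lay above the set 1 arrays. The PBS mean was 10.73 ± 0.33 (n = 4) and the G-CSF mean 9.82 ± 0.34 (n = 5), a difference of -0.91 (SE 0.21, 95% interval -1.37 to -0.46) that narrowly missed the threshold (limma adjusted p = 0.0510). Within sets the difference was -0.86 and -0.85, and with the set as a block it passed at -0.86 (adjusted p = 0.00228). It also passed without G-CSF replicate 5 (-1.02, adjusted p = 0.0388), whereas without PBS replicate 4 it was -0.80 with an adjusted p of 0.156.

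**Figure D2:**
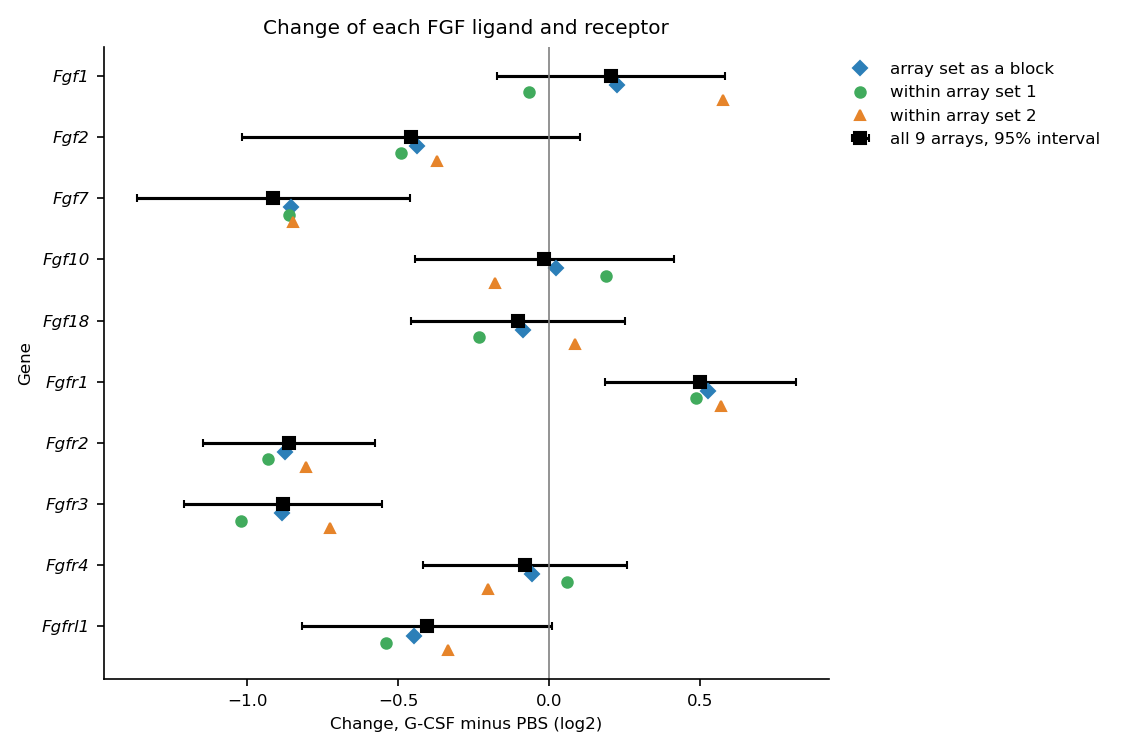
Change of each FGF ligand and receptor, log2 units (G-CSF less PBS), with squares and 95% intervals from the limma fit to all 9 arrays and coloured points for the set as a block and for each array set alone. The intervals of Fgf7, Fgfr2 and Fgfr3 lie below 0 and that of Fgfr1 above 0, and for these 4 genes every point lies on the same side. Fgfr2 and Fgfr3 were the members that passed the adjustment over all probe sets in the fit to all 9 arrays.

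Fgf2, or basic FGF, a ligand of all receptor kinases of the family that is held in the matrix by heparan sulfate, varied most between arrays of a group. It read 6.0, 5.42, 6.43 and 5.27 in PBS and 5.37, 5.62, 4.66, 5.49 and 5.46 in G-CSF. The groups overlapped, with a difference of -0.46 (SE 0.26, 95% interval -1.02 to 0.10, limma adjusted p = 0.703), which was -0.24 without PBS replicate 3. Fgf1, or acidic FGF, read between 5.31 and 5.64 in PBS and between 5.42 and 6.21 in G-CSF, a difference of 0.21 (95% interval -0.17 to 0.58, limma adjusted p = 0.871). Its 2 highest values were those of G-CSF replicates 4 and 5, and the difference was -0.066 in set 1 and 0.58 in set 2. Fgf18, a ligand with roles in cartilage and bone, lay between 5.25 and 5.71 in PBS and between 5.00 and 5.62 in G-CSF (difference -0.10, 95% interval -0.46 to 0.25). Fgf10, the other main ligand of the IIIb form of Fgfr2, lay between 3.19 and 4.12 in PBS and between 3.52 and 4.02 in G-CSF, with a difference of -0.01 (95% interval -0.44 to 0.41). For Fgf1, Fgf10, Fgf18 and Fgfr4 the sign of the difference turned between settings, and no direction is given for them.

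The members' values ran from 3.19 (Fgf10) to 11.06 (Fgf7). Over all tested probe sets and arrays, the lower quartile of log2 intensity was 4.19, the median 5.42, the upper quartile 6.76 and the 95th percentile 8.70. In PBS, every value of Fgf7 and Fgfr2 lay above that 95th percentile, and every value of Fgfr1 and Fgfrl1 lay above the upper quartile. The PBS values of Fgfr3 lay on both sides of the upper quartile. All PBS values of Fgf10 lay below the lower quartile. The values of Fgf1, Fgf2, Fgf18 and Fgfr4 lay between the lower and the upper quartile. RMA values hold no detection call and probe sets differ in response, so low values are not called absent and the members are not ranked.

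A total of 110 other genes of the pathway were listed, of which 102 had a probe set of their own. Among them 3 rose and 0 fell at a limma adjusted p under 0.05, beside 162 (0.743%) and 191 (0.877%) of all probe sets. They were Sulf1, Flrt2 and Sdc3, which act outside the cell or at its surface. The median change over the 102 genes was 0.07, beside 0.0061 over all probe sets. Of the 17 other FGF genes 0 changed, with differences between -0.27 and 0.20 (median 0.06). The 2 with the smallest p were Fgf13, an intracellular FGF homologue, at -0.27 (limma adjusted p = 0.812), and Fgf16 at 0.20 (adjusted p = 0.858).

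Sulf1, an extracellular sulfatase that removes 6-O-sulfates from heparan sulfate and is known to weaken FGF2 signalling, rose 2.48-fold. It read 8.71, 8.77, 9.28 and 9.70 in PBS and 10.37, 10.17, 10.30, 10.66 and 10.65 in G-CSF, with no overlap. The change was 1.31 (SE 0.21, limma adjusted p = 0.00771), 1.54 in set 1 and 1.16 in set 2. It was the 1 member of 16 measured heparan sulfate enzymes that changed (list median 0.15). Among 13 heparan sulfate core proteins 1 rose (list median 0.00), Sdc3, a syndecan best known from nerve cells. Sdc3 read 6.66, 6.77, 6.38 and 6.88 in PBS and 7.67, 7.44, 7.82, 7.57 and 7.42 in G-CSF, a change of 0.91 (SE 0.15, limma adjusted p = 0.00896), with 0.93 in set 1 and 0.86 in set 2. Sdc4 (0.65, adjusted p = 0.153) lay higher and Tgfbr3 (-0.41, adjusted p = 0.183), the proteoglycan co-receptor of TGF-beta, lay lower on every G-CSF array without passing. Both were chosen after their values were seen. Under other settings, Sdc4 passed with array weights and Tgfbr3 with a pseudocount of 16. Among the 102 pathway genes, all G-CSF arrays lay above all PBS arrays for 4, which include the 3 that rose. They lay below for 2. Of all probe sets, 2.18% lay above and 2.46% below in this way.

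Among 12 FGF binding proteins and co-receptors 1 rose (list median -0.01). It was Flrt2, a leucine-rich repeat membrane protein of a family that interacts with FGF receptors. Flrt2 read 7.42, 7.41, 7.73 and 7.90 in PBS and 8.57, 8.28, 8.63, 8.57 and 8.61 in G-CSF, a change of 0.92 (SE 0.15, limma adjusted p = 0.00871), with 1.08 in set 1 and 0.77 in set 2. The calls of Sulf1, Sdc3 and Flrt2 held in all 9 fits that left out 1 array. With the replicate number as a block, Sulf1 passed and Sdc3 and Flrt2 did not. In set 1 alone Sulf1 (adjusted p = 0.00877) and Flrt2 (0.0404) passed and Sdc3 (0.0748) did not, and in set 2 alone none of the 3 did (adjusted p of 0.135, 0.265 and 0.300 for Sulf1, Flrt2 and Sdc3). Kl, a co-receptor of hormonal FGFs, had a mean of 4.02 ± 0.14 under PBS and 3.98 ± 0.11 under G-CSF (limma adjusted p = 0.987). It too was picked with its values known.

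**Figure D3:**
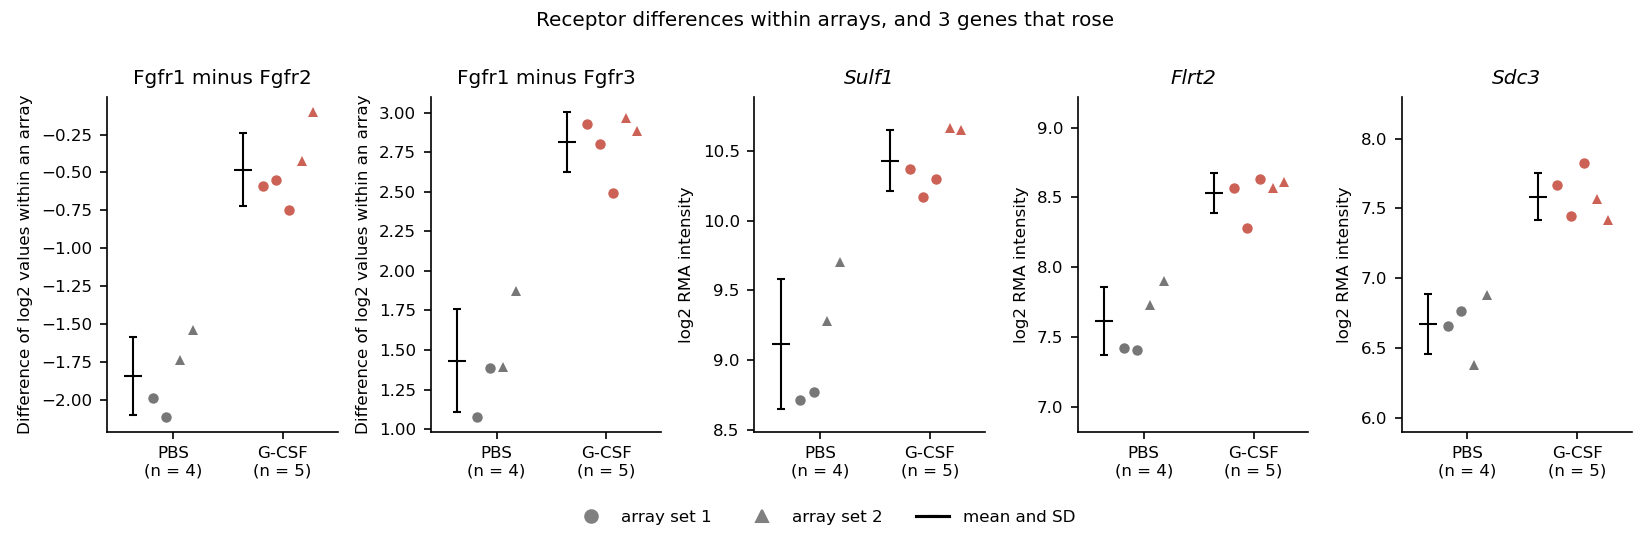
Differences of log2 values between receptors within an array (2 panels on the left) and log2 RMA intensity of Sulf1, Flrt2 and Sdc3 (3 panels on the right) for PBS (n = 4) and G-CSF (n = 5) arrays, with mean and SD and the array set as the point shape. In each of the 5 panels all G-CSF arrays lie above all PBS arrays, and Fgfr1 minus Fgfr2 shifts by 1.36. For the 2 differences this separation follows from the values of the single receptors.

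Genes below the receptors did not pass the test. Of 25 listed signal transducers 19 were measured and 0 changed (median -0.01), with differences between -0.38 and 0.38. Frs2 was among the 6 without a probe set of their own. The 2 with the smallest p were Pik3r1, the regulatory subunit of phosphoinositide 3-kinase, at -0.38 (limma adjusted p = 0.284), which lay lower on all G-CSF arrays, and Nras, a Ras protein, at 0.28 (adjusted p = 0.759). Of 12 feedback inhibitors 0 changed (median 0.06). Dusp7, a phosphatase of ERK, was at 0.60 (adjusted p = 0.372) and Spry1, a Sprouty protein, at -0.45 (adjusted p = 0.675). Dusp6, the ERK phosphatase often used as a readout of FGF signalling, had a mean of 8.11 ± 0.62 under PBS and 8.12 ± 0.42 under G-CSF (adjusted p = 1.00, change 0.01 with a 95% interval from -0.61 to 0.63). It was chosen after its values were seen, and an interval this wide includes changes in either direction.

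Transcription targets of FGF and ERK signalling had 0 of 13 measured members past the threshold, with 10 positive and 3 negative differences and a median of 0.37, beside 0.0061 over all probe sets. Fosl1, an AP-1 subunit, had a mean of 5.82 ± 0.40 under PBS and 6.75 ± 0.37 under G-CSF (difference 0.93, limma adjusted p = 0.0705). It passed with the set as a block (0.98, adjusted p = 0.00675) and without G-CSF replicate 3 (1.09, adjusted p = 0.0248). Phlda1, a growth factor response gene, was at 0.65 (adjusted p = 0.345). Many other growth factors and stress signals induce the genes of this list.

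**Figure D4:**
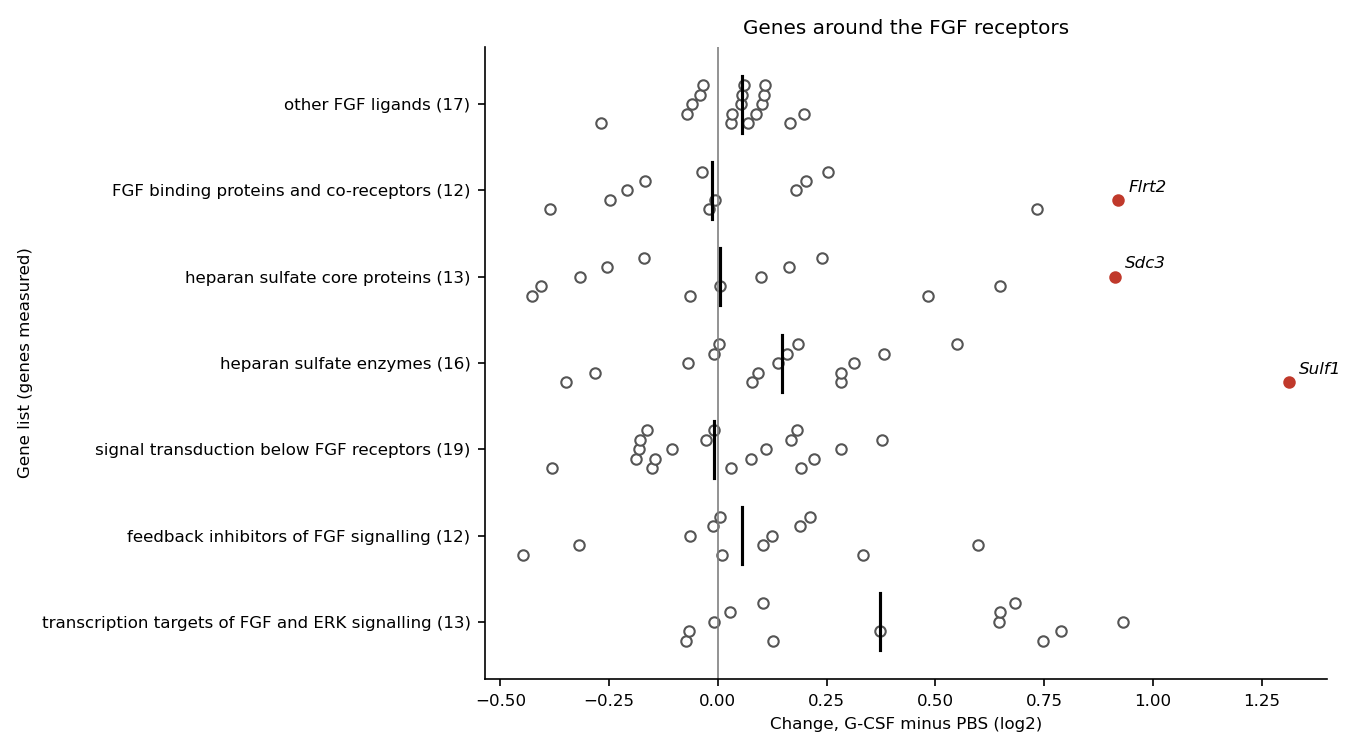
Change of each measured gene around the FGF receptors, log2 units (G-CSF less PBS), by list, with filled red points for genes past an adjusted p of 0.05 in limma and a black bar at the list median. The 3 filled points are Sulf1, Flrt2 and Sdc3, and the list medians lie between -0.01 and 0.37. The list labelled other FGF ligands also holds intracellular FGF homologues such as Fgf13.

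Marker genes of the sorted cells and of other cells differed between the groups as well. For comparison, 0.743% of all probe sets rose and 0.877% fell by the same rule. Of 13 markers of CAR and leptin receptor positive stroma 8 fell and 0 rose. The summed intensity of all 13 was 25610 to 29135 in PBS and 15370 to 16539 in G-CSF. Those that fell were Ebf3, Kitl, Il7, Vcam1, Angpt1, Adipoq, Lpl and Chrdl1. Cxcl12, Lepr, Foxc1, Pdgfra and Pdgfrb did not pass. Pdgfra and Pdgfrb were higher on average in G-CSF, by 0.28 and 0.01. Osteoblast lineage markers summed to 4507 to 6119 and 3420 to 3924, mostly through Ibsp, which did not pass. Of these 6 markers 1 rose, Col1a1, and 1 fell, Phex. Chondrocyte markers summed to 265 to 318 and 202 to 269 (1 of 6 fell). B lineage markers summed to 1227 to 1564 and 722 to 805, in large part through Ebf1, which stromal cells also express. All 7 were lower on average, with differences from -1.08 to -0.005. Of these, 2 fell, Ebf1 and Cd79a, and Cd79a went from 4.46 to 3.38. For 4 of the 7 every G-CSF array lay below all PBS arrays, beside 2.46% of all probe sets. Neutrophil markers summed to 6830 to 17687 and 12290 to 19244 (0 of 11 passed, all 11 higher on average). Smooth muscle and pericyte markers summed to 414 to 461 and 638 to 865 (2 of 9 rose), and fibroblast markers to 1001 to 1548 and 2095 to 2461. Most of the fibroblast sum was Dcn, the matrix proteoglycan decorin, which went from 10.07 to 11.04 and was the 1 of 6 that rose, and the other 5 had group means of at most 6.11. Macrophage markers summed to 2996 to 3665 and 1541 to 1882. Most of that sum was Vcam1, which is also in the stromal list, went from 11.54 to 10.47 and was the 1 of 8 that fell, and the other 7 had group means of at most 7.19. Erythroid markers summed to 172 to 692 and 118 to 153 (1 of 5 fell, Car1). Endothelial markers summed to 229 to 305 and 232 to 272 (0 of 8 passed). Keratinocyte and epithelial markers, of interest because Fgfr2 IIIb is epithelial, summed to 170 to 191 and 160 to 192 (0 of 6 passed). No marker was at 0 on any array, but this held for every tested probe set, the lowest intensity being 2.3. It does not show that a cell type was present. The part of these cell types in the changes of Fgfr2, Fgfr3, Sulf1, Sdc3 and Flrt2 was not tested.

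The genes whose profile over the 9 arrays was most like that of the most variable ligand and receptor were listed, by the root mean square difference of mean-centred log2 values among 19937 other genes. For Fgf7 these were Esm1, an endothelial-type proteoglycan (0.14), Plxdc2, a plexin domain membrane protein (0.15), and Ahcyl1, a regulator of inositol trisphosphate receptors (0.17). For Fgfr3 they were Ms4a1, which encodes the B cell antigen CD20 (0.11), Dapk1, a death-associated protein kinase (0.13), and Gatb, a mitochondrial amidotransferase subunit (0.13). Ms4a1 was low, with means of 4.07 in PBS and 3.38 in G-CSF, under the lower quartile of all tested probe sets (4.19). The differences between the groups were -0.90 for Esm1, -0.81 for Plxdc2 and -1.04 for Ahcyl1, and -0.69 for Ms4a1, -0.84 for Dapk1 and -0.75 for Gatb. Because these genes were picked for profiles like those of Fgf7 and Fgfr3, which were lower on every G-CSF array, their direction follows from the choice. No test is given for them.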

How the data were processed

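Sorted cells went into TRIzol LS, and cDNA was amplified with a NuGEN PicoSL Ovation kit and labelled with an Encore Biotin kit, per the labels' protocols. Intensity values, as deposited, are RMA output of Affymetrix Expression Console (submitters' processing notes). No version is given in the sources used here. The values ran from 1.73 to 15673, with array medians of 34.72 to 37.24, so they are linear, and log2 was taken first. Of 35553 probe sets, the 21789 with 1 symbol in the platform table were tested (1621 had several, 12143 none). A listed gene with several probe sets was read from the one with the highest mean.

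G-CSF was compared with PBS on all 9 arrays with limma 3.58.1 (lmFit, eBayes, two-sided, no covariate) in R 4.3.3, with Benjamini-Hochberg adjustment over all 21789. The number of arrays limits the precision. The labels call the arrays biological replicates without naming animals, so a p-value speaks only to array-to-array spread, which may be technical. The steps were tested on simulated data with independent noise for each probe set. Array sets and effects shared between probe sets were not simulated, so the simulation does not speak to them. The members, gene lists, array sets and tests were chosen with earlier results of these data known.

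Named genes were the 10 members, the genes of each pathway list that passed or else the 2 with the smallest p, and the 3 nearest profiles of the ligand and the receptor with the largest SD. Others are marked as chosen after their values were seen, apart from markers. Alternatives were all probe sets, brighter probe sets, eBayes with trend and robust settings, quantile normalisation, median centring, array weights, the replicate number or the array set as a block, each set alone, a pseudocount of 16, adjusted p thresholds of 0.1 and 0.01, and each array left out. Averaging G-CSF replicates 4 and 5 was added after seeing the data.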

Additional observations from a re-analysis of the deposited data

Results flagged for a closer look

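The highest or lowest array stood far from the others of its group in 4 of 54 gene and group pairs (27 named genes in 2 groups), where chance flags about 1 in 20. The value given is the gap to the nearest array over the range of the group. Fgf1 in PBS had a ratio of 0.943, because PBS replicate 3 read 5.31 and the others 5.62 to 5.64. Fgf2 in G-CSF had 0.741, with G-CSF replicate 3 at 4.66 and the others at 5.37 to 5.62. Flrt2 in G-CSF had 0.811, with G-CSF replicate 2 at 8.28 and the others at 8.57 to 8.63, still above every PBS array. Fosl1 in G-CSF had 0.727, with G-CSF replicate 3 at 6.11 and the others at 6.79 to 7.04.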

How the results depend on the processing

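The direction of Fgfr2, Fgfr3, Fgf7 and Fgfr1 was the same under every alternative run. The number of members changed was 2 to 3 with 1 array left out (3 without G-CSF replicate 5), 4 with the array set as a block, 1 in set 1 alone and 0 in set 2 alone, and 1 at an adjusted p under 0.01. Fgfr2 was at -0.80 in set 2 alone and Fgfr3 at -1.02 and -0.72 in sets 1 and 2, without a call. Fgf7 passed with the set block (-0.86), among brighter probe sets (-0.91), with median centring (-0.92) and in 1 of 9 fits without an array (-1.02 to -0.80). Fgfr1 passed with the set block (0.53). The sign turned for Fgf1 in set 1 (-0.066), Fgf18 in set 2 (0.086), Fgfr4 in set 1 (0.061) and Fgf10 in set 1 (0.19), with array weights (0.059) and with the set block (0.022). With 1 array left out, Fgf10 ran from -0.20 to 0.11 and Fgfr4 from -0.20 to 0.0014. The cause was not tested.

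The count of pathway genes changed was 5 with array weights, which added Fosl1 and Sdc4, and 0 in set 2 alone. With a pseudocount of 16 it was 4, and the gene added, Tgfbr3, fell. Over all probe sets the 353 calls became 181 with all 35553 probe sets tested, 598 with the set block, 202 and 59 in sets 1 and 2, 149 at an adjusted p under 0.01, and 210 to 318 with 1 array left out (leaving out PBS replicate 1 gave 210, G-CSF replicate 1 gave 222 and G-CSF replicate 4 gave 224). The filter for brighter probe sets left out Fgf10, Fgf18 and Fgfr4. G-CSF replicates 4 and 5 were the closest pair of arrays (SD of log2 differences 0.28, next 0.37), and averaging them gave 2 members changed.

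The labels do not say whether the replicate numbers pair the arrays. Same-numbered deviations correlated at 0.28, 0.14, -0.28 and 0.35 for numbers 1 to 4. Correlations between different numbers were not computed for comparison, so these values do not settle the pairing. With the replicate block, which leaves G-CSF replicate 5 in a block of its own, 180 probe sets, 0 members and 1 pathway gene (Sulf1) were called, so the calls of Flrt2 and Sdc3 were lost too (adjusted p = 0.0530 and 0.0652). Fgfr2 was then at -0.82 and Fgfr3 at -0.92 (limma adjusted p = 0.0639 and 0.0722).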
